A study of Mus musculus with 12 samples.

Results

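T cell clones of middle size, with 5 to 19 cells each, were described in tumours of mice treated with a control lipid nanoparticle or with one named for a p53 antibody. A cell here is a droplet barcode with 1 T cell receptor beta chain (TRB) and 1 or 2 alpha chains (TRA), and cells of 1 library that share the TRBV segment, the TRBJ segment and the CDR3 bases form a lineage. This rule gave 203 lineages, or 1853 of 19115 usable cells, among 10586 lineages in all. The other lineages were 9725 seen in 1 cell, 580 small ones of 2 to 4 cells and 78 large ones of 20 or more cells. The members were chosen by a measured value, the number of cells per lineage, so clone size is described and not tested.

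All tumours came from MC38 colon carcinoma cells of a p53 knockout derivative, to which the labels assign a p53 substitution in conflicting notations. They were grown under the skin of C57BL/6 mice aged 6 to 8 weeks from 300000 cells. Palpable tumours of about 50 to 100 mm³ were injected once, on day 10, with 40 µg of the control agent, LNP-Ctrl, or of LNP-P20-mAb, so the groups share the host strain, tumour line, route and dose and differ in the agent. Viable CD45+ leukocytes were sorted, and about 10000 per sample entered droplet 5′ libraries enriched for T cell receptor transcripts, with 3 TCR libraries for each treatment. The labels do not say that the replicates were separate mice, so a p-value here measures the spread between libraries only. LNP-P20-mAb 1 and 2 shared 121 lineages, against 1 to 7 for each other pair of libraries, and are therefore not independent. The state of the cells is not described, since the 6 samples of gene expression were not used here.

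A T cell builds its beta chain by joining a V, a D and a J segment and its alpha chain by joining a V and a J segment. Bases lost and added at the joints make the CDR3, the loop that lies over the peptide when the receptor binds a peptide on an MHC molecule. Daughter cells keep both chains, so cells with the same rearranged bases are read as 1 clone. The same amino acids can also be spelled by different bases, which marks separate rearrangements that arrived at one receptor.

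Receptors of middle-sized lineages that recurred in another library are shown first, with their spelling. Each line gives the TRB CDR3 bases, 5′ to 3′, with the bases that vary between libraries in capitals.
TRBV5 in LNP-P20-mAb 1 and 2: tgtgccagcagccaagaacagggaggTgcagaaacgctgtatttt
TRBV5 in LNP-P20-mAb 3: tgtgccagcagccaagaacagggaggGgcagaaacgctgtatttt
TRBV12-2 or TRBV13-2 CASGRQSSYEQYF in LNP-Ctrl 1: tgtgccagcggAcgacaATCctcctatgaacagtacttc
TRBV12-2 or TRBV13-2 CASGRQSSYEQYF in LNP-Ctrl 2: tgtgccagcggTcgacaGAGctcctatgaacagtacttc
TRBV10 in LNP-Ctrl 2, 4 cells: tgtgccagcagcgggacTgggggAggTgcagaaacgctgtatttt
TRBV10 in LNP-P20-mAb 3, 6 cells: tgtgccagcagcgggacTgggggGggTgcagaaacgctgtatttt
TRBV13-3 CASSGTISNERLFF in LNP-Ctrl 3 and LNP-P20-mAb 1, 2 and 3: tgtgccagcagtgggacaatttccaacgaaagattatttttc

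The TRBV5 receptor shown first had 2, 17 and 7 cells in LNP-P20-mAb 1, 2 and 3, with 1 base different in LNP-P20-mAb 3. Its alpha chain in all 3 was TRAV7D-2 CAASDYSNNRLTL, so both chains recurred although the beta chain was spelled in 2 ways.

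Other recurring receptors kept all, part or none of the alpha segments. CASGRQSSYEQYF, whose V segment the caller named jointly as TRBV12-2 and TRBV13-2, had 15 cells in LNP-Ctrl 1 and 5 in LNP-Ctrl 2, with 4 bases different. The alpha chains there were TRAV19 and TRAV12-2 with TRAJ42 in both, the latter with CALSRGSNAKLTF. TRBV13-1 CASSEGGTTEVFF had 2 cells in LNP-Ctrl 2, 7 in LNP-P20-mAb 1 and 4 in LNP-P20-mAb 2, with TRAV10 family segments and TRAJ22 in each. A second TRBV5 receptor, which counted 10 cells in LNP-P20-mAb 3 but 2 in LNP-Ctrl 1, had TRAV4N-4 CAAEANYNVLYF in both and 2 bases different.

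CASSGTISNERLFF was 1 of 2 recurring receptors with identical bases throughout. It had 4, 3 and 11 cells in LNP-P20-mAb 1, 2 and 3, with a TRAV12N-2 and TRAJ22 alpha chain in each, and 1 cell in LNP-Ctrl 3 with TRAV12N-2 and another TRAJ. TRBV3 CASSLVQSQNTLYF had 7 cells in LNP-Ctrl 2 but 2 in LNP-P20-mAb 1, with TRAV7D-2 but different TRAJ segments. TRBV31 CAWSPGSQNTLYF had 6, 1 and 2 cells in LNP-Ctrl 1, 2 and 3, with TRAV14N-2 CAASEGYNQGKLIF in each, beside a TRAV13-2 chain in LNP-Ctrl 1. Another TRBV3 receptor had 13 cells in LNP-Ctrl 1 and lineages of 1 or 2 cells in LNP-Ctrl 3 and LNP-P20-mAb 1 and 2. That receptor had no alpha chain that all of its libraries shared.

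A group of TRBV10 receptors, with TRBJ2-3 and CDR3s of 15 residues that end in GAETLYF, was of middle size in 4 libraries. Its lineages had 7 cells in LNP-Ctrl 1 and 6 in LNP-Ctrl 2. LNP-P20-mAb 1 had them with 8 and 5 cells, and LNP-P20-mAb 3 with 6, 6 and 5. Each of them held a TRAV9 and TRAJ27 alpha chain, as the main or the second chain, with CDR3s such as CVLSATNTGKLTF. A receptor of this kind is the TRBV10 pair printed above, found under 4 spellings in 4 libraries (the first of them also in LNP-P20-mAb 1 and 2), and a second one had 4 spellings in 5 libraries. A smaller TRBV10 set, with the alpha segments TRAV3 and TRAJ26 throughout, held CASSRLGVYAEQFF with 8 cells in LNP-Ctrl 2 and 1 in LNP-Ctrl 1. Its neighbours at 1 residue were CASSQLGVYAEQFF with 5 cells in LNP-Ctrl 1, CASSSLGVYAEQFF with 24 in LNP-Ctrl 2 and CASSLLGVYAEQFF with 2 in LNP-Ctrl 3. TRBV20 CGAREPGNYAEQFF, with 13 cells in LNP-P20-mAb 3 and TRAV7D-2 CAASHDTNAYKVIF, lay 1 residue from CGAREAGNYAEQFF, a clone of 468 cells in LNP-Ctrl 1 with TRAV7D-2 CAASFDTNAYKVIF.

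Middle-sized lineages were alike a receptor of another library at higher shares than single cells, in 5 of 6 libraries for the same receptor and in 6 of 6 for 1 residue apart, with adjusted p-values that missed 0.05. LNP-P20-mAb 1 and 2 did not count as another library for each other in these values. The same TRBV, TRBJ and CDR3 amino acids occurred elsewhere for 17.1%, 28% and 0% of middle-sized lineages in LNP-Ctrl 1, 2 and 3 and for 8.57%, 9.09% and 13.0% in LNP-P20-mAb 1, 2 and 3. The 0 of 15 in LNP-Ctrl 3 allows a share of up to 20%. Among single-cell lineages the shares were 2.87%, 1.87% and 2.04%, and 3.33%, 6.93% and 2.48%. The difference was 9.36 ± 10.0 percentage points (SD, n = 6 libraries), higher in 5 of 6, with an exact sign-flip permutation p of 0.0625 (0.109 adjusted over 7 measures). Without LNP-Ctrl 2 it was 5.04 percentage points, with an exact p of 0.1875.

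A receptor with the same TRBV and exactly 1 different residue was found elsewhere for 26.8%, 48% and 26.7% of middle-sized lineages in the LNP-Ctrl libraries and for 37.1%, 33.3% and 38.9% in the LNP-P20-mAb libraries. Single-cell lineages gave 20.4%, 17.3% and 17.0%, and 23.5%, 20.5% and 18.4%, below the middle-sized lineages in 6 of 6 libraries. The difference was 15.6 ± 8.78 percentage points (SD, n = 6), with an exact two-sided sign-flip p of 0.031, the smallest that 6 libraries allow, and 0.109 after adjustment over 7 measures. Neither share differed between treatments beyond the spread. The exact permutation p was 0.7 for the same receptor, with a difference of −4.82 percentage points for LNP-P20-mAb minus LNP-Ctrl, and 0.8 for 1 residue apart, with a difference of 2.62.

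Summed over libraries, 27 of 203 middle-sized lineages (13.3%) had their receptor elsewhere, against 2.40% of single-cell, 8.28% of small and 15.4% of large lineages. Only 4 of the 27 had the same bases elsewhere, so 23 were spelled differently. Of the 21 distinct receptors behind these lineages, 19 had 2 or more nucleotide versions. A beta chain alike within 1 residue together with a shared TRAV family and TRAJ was found for 33 middle-sized lineages (16.3%), against 1.38% of single-cell, 11.4% of small and 25.6% of large lineages. These totals weight libraries by their lineages and carry no test.

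**Figure D1:**
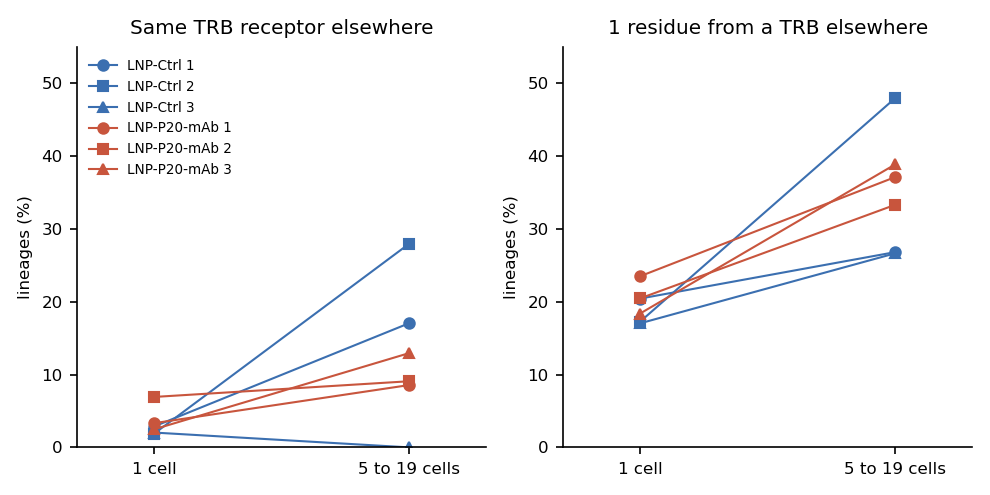
Share of lineages, in percent, whose TRB receptor occurs in another library (left) or lies 1 residue from one there (right), for single cells and for lineages of 5 to 19 cells, with 1 line for each library (blue LNP-Ctrl, red LNP-P20-mAb). The right panel rises in all 6 libraries, while in the left panel LNP-Ctrl 3 goes from 2.04% to 0%.

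The members were spread unevenly over the libraries. LNP-Ctrl 1, 2 and 3 held 41, 25 and 15 such lineages, with 386, 199 and 133 cells. LNP-P20-mAb 1, 2 and 3 held 35, 33 and 54 lineages, with 357, 318 and 460 cells. As a share of usable cells this was 11.6% (95% Clopper-Pearson interval 10.5 to 12.7), 5.07% (4.41 to 5.81) and 3.56% (2.99 to 4.204) in the LNP-Ctrl libraries. It was 10.9% (9.89 to 12.1), 15.8% (14.2 to 17.4) and 16.2% (14.8 to 17.6) in the LNP-P20-mAb libraries. The groups overlapped, with LNP-Ctrl 1 above LNP-P20-mAb 1, and their means were 6.74 ± 4.26% and 14.3 ± 2.91% (SD, n = 3 each). The intervals treat each cell as an independent draw, although cells come in lineages, and they leave out the spread between libraries.

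Most members lay in the lower part of the window, with 124 lineages of 5 to 9 cells and 79 of 10 to 19. Just outside it stood 58 lineages of 4 cells and 3 of 20 cells, and just inside 41 of 5 cells and 3 of 19 cells. Median TRB transcript counts, as unique molecular identifiers (UMIs) per cell, were 18.25 at 4 cells and 19 at 5 cells, and 37 at 19 cells and 21.5 at 20 cells.

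**Figure D2:**
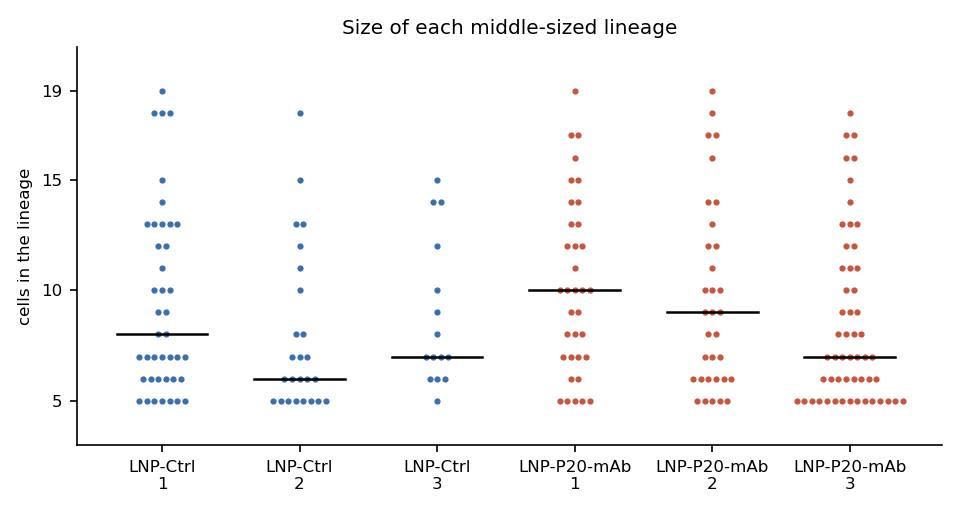
Number of cells in each of the 203 middle-sized lineages by library, with 1 point for each lineage and a black bar at the library median. The medians are 8, 6 and 7 cells in LNP-Ctrl 1, 2 and 3 and 10, 9 and 7 cells in LNP-P20-mAb 1, 2 and 3.

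The largest members of each library had unlike receptors. In LNP-Ctrl 1 a TRBV12-2 lineage with TRAV14D-3-DV8 had 19 cells and TRBV16 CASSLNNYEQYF had 18. In LNP-Ctrl 2 the first was TRBV3 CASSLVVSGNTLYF with 18 cells. In LNP-Ctrl 3 they were TRBV17 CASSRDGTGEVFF with TRAV6D-6 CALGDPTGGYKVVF in 15 cells and TRBV20 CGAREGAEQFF with TRAV7-6 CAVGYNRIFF in 14. In LNP-P20-mAb 1 they were TRBV13-3 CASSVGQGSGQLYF with TRAV9-4 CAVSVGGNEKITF in 19 cells and TRBV13-1 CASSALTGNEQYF in 17. LNP-P20-mAb 2 had a TRBV17 lineage with 19 cells, which counted 31 in LNP-P20-mAb 1, and a TRBV1 lineage with 18, which counted 13 there. LNP-P20-mAb 3 had a TRBV12-1 lineage with TRAV6N-6 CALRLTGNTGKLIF in 18 cells and a TRBV13-1 lineage with TRAV6D-6 in 17.

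Because LNP-P20-mAb 1 and 2 shared clones, the same lineage could be counted in both. Of the 35 middle-sized lineages of LNP-P20-mAb 1, 34 were found in LNP-P20-mAb 2, and 31 of 33 in the other direction. Of the 48 lineages of middle size in at least 1 of them, 20 were of middle size in both. A further 5 were large in LNP-P20-mAb 1 and 1 was large in LNP-P20-mAb 2. Of the others, 11 had 2 to 4 cells in LNP-P20-mAb 2 and 6 had 2 to 4 cells in LNP-P20-mAb 1, and the rest were single or absent in one of them. TRBV13-1 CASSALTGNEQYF had 17 cells in the first and 2 in the second, a TRBV31 lineage had 10 and 1, and TRBV13-3 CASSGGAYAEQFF had 8 and 0. In the other direction the TRBV5 receptor shown first had 2 and 17, TRBV13-1 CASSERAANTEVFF had 0 and 6, and TRBV16 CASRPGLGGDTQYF had 0 and 5. Spearman's rho over the 48 lineages was 0.407, given as a description, since the window selects the lineages.

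**Figure D3:**
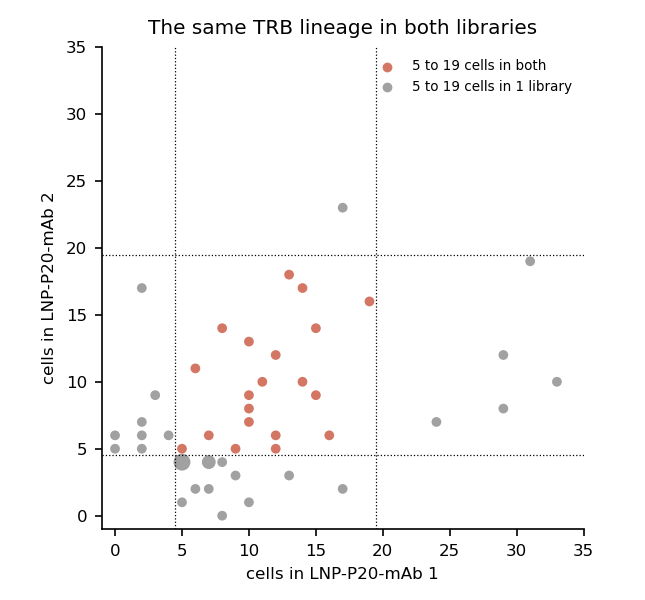
Cells of each of the 48 lineages in LNP-P20-mAb 1 (horizontal) and LNP-P20-mAb 2 (vertical). Dotted lines mark the window of 5 to 19 cells, red points are the 20 lineages inside it in both libraries, grey points are the rest, and larger points hold more than 1 lineage.

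TRBV3, a beta chain V segment, was the segment that differed between treatments under the main rule. It was used by 6, 4 and 4 middle-sized lineages in LNP-Ctrl 1, 2 and 3 and by 0, 1 and 1 in LNP-P20-mAb 1, 2 and 3. This was 14.6%, 16% and 26.7% against 0%, 3.03% and 1.85% of a library's members, with no overlap, and the 0 of 35 allows up to 8.57%. The log2 change was −3.14 ± 0.80 (SE), with an edgeR quasi-likelihood adjusted p of 0.00396. Of the 28 segments tested 1 was called lower in LNP-P20-mAb, or 3.57% of those tested, and 0% were called higher. The call was lost with DESeq2 (adjusted p = 0.0778), with TMM factors in edgeR (0.0878) and with the replicate number as a block (0.0882). TRBV3 was also carried by 7.38%, 9.68% and 9.02% of single-cell lineages in the LNP-Ctrl libraries and by 3.55%, 2.97% and 1.11% in the LNP-P20-mAb libraries. Under the main rule the same order thus stood outside the members. These single-cell shares, too, leave out barcodes with 2 beta chains.

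The TRBV3 difference did not hold once barcodes with 2 beta chains were kept. The rule left out 1844 such barcodes, 216, 302 and 229 in the LNP-Ctrl libraries and 535, 211 and 351 in the LNP-P20-mAb libraries. Barcodes with 2 TRBV3 chains numbered 12, 8 and 3 in LNP-Ctrl and 163, 74 and 118 in LNP-P20-mAb. When a barcode was kept under its chain with more UMIs, TRBV3 lineages of middle size numbered 6, 4 and 4 against 5, 5 and 1. When only barcodes with 2 chains of the same TRBV were kept, under the chain found on fewer barcodes, they numbered 7, 4 and 4 against 6, 5 and 1. The log2 change was then −0.98, with an edgeR adjusted p of 0.611 and 0 of 31 segments called (3 at an unadjusted p under 0.05). LNP-P20-mAb 3 stayed at 1 lineage under each rule. Which of the 2 chains a cell used was not tested.

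**Figure D4:**
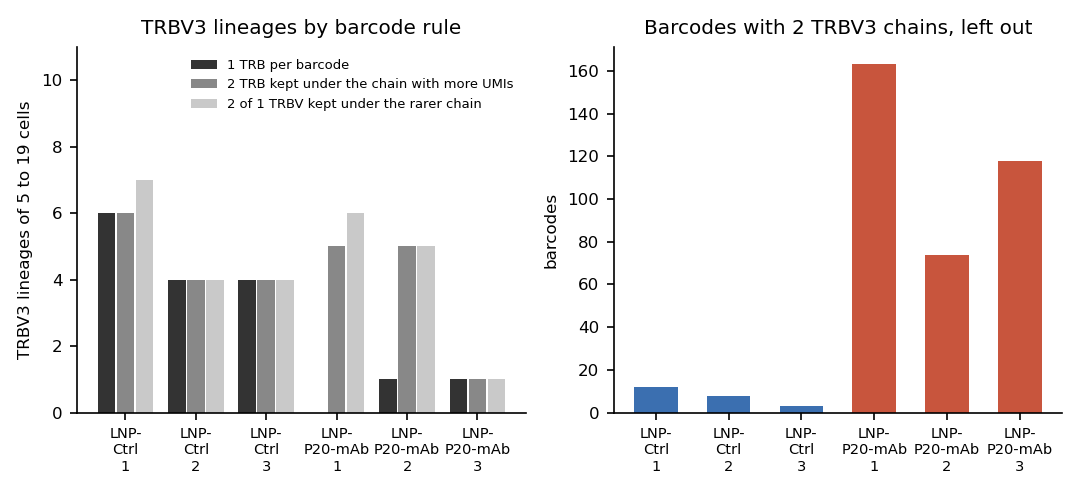
Left, number of middle-sized TRBV3 lineages in each library under 3 rules for barcodes with 2 TRB chains. Right, number of barcodes with 2 TRBV3 chains in each library, all left out by the main rule. LNP-P20-mAb 1 goes from 0 to 5 or 6 lineages when these barcodes are kept, while the LNP-Ctrl libraries move by at most 1.

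The same barcodes touched members of other segments. In all 381 left-out barcodes carried a member's beta chain, 72, 13 and 6 of them in the LNP-Ctrl libraries against 86, 38 and 166 in the LNP-P20-mAb libraries. For 309 of them the other chain had the same TRBV, and for 241 it was the chain of a large lineage. In the barcodes of 2 chains of 1 TRBV the rarer chain had median UMI counts of 27, 34.5 and 19 in LNP-Ctrl and 16, 25 and 25 in LNP-P20-mAb, above the commoner chain at 11, 8 and 11 and at 12, 7 and 7.

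For 12 members the left-out barcodes were as many as the counted cells, or more. TRBV3 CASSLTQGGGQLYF in LNP-P20-mAb 3 had 14 cells and 55 further barcodes, all with its main alpha chain and all with the beta chain of a TRBV3 lineage of 414 cells. TRBV13-1 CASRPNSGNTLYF in LNP-P20-mAb 3 had 6 cells and 47 further barcodes, 46 of them with 1 TRBV12-1 chain. That chain had 0 usable cells as a lineage, so it was not that of the TRBV12-1 lineage of 18 cells in this library. In LNP-Ctrl 1, TRBV16 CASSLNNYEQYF and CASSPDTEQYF had 18 cells each and 17 barcodes in common. With every such barcode and the 122 barcodes that had a member's beta chain but no alpha chain added, 19 members would pass 19 cells. In addition, TRBV13-2 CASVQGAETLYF with 10 cells in LNP-Ctrl 1 had the CDR3 bases and the alpha chain of a lineage of 102 cells whose V segment was named TRBV12-2 and TRBV13-2 together.

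The other segments named by the rule did not pass the test between treatments. Higher estimates in LNP-P20-mAb were found for TRAJ7, with 1, 0 and 0 lineages in LNP-Ctrl against 4, 5 and 3, a log2 change of 2.67 ± 1.06 (SE) and an edgeR adjusted p of 0.182. In shares of members the groups did not overlap for TRAJ7. Of the 28 tested segments, only TRBV3, TRAJ30, TRBV16 and TRAJ21 were also without overlap. Without LNP-Ctrl 1, which leaves TRAJ7 at 0 lineages in LNP-Ctrl, its log2 change was 4.73, with an edgeR adjusted p of 0.0776. TRAJ30 had 1, 0 and 0 against 3, 3 and 4 lineages and TRBV13-1 had 1, 2 and 2 against 7, 6 and 7, both with an edgeR adjusted p of 0.268. TRBV16 had 2, 0 and 0 against 3, 4 and 3, and TRAJ21 had 2, 0 and 0 against 3, 3 and 3. Lower estimates were found for TRAJ42 with 2, 2 and 3 against 2, 1 and 1, the jointly named TRBV12-2 and TRBV13-2 with 7, 1 and 0 against 1, 2 and 3, TRBJ2-2 with 3, 3 and 0 against 1, 1 and 3, and TRAV3N-3 with 4, 2 and 0 against 2, 3 and 0. TRAJ7, TRAJ30, TRBV13-1, TRBV16 and TRAJ21 each include lineages of middle size in both LNP-P20-mAb 1 and 2, which are counted in both libraries. The same holds for the jointly named segment, TRBJ2-2 and TRAV3N-3.

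By family, 0 of 3 TRBJ1, 0 of 6 TRBJ2, 0 of 2 Vβ8 (TRBV13), 0 of 1 Vβ5 (TRBV12) and 0 of 1 TRAV7 segments passed the test between treatments, and 1 of 7 other TRBV segments did, which was TRBV3. The median log2 changes were −0.56, −0.06, 1.21, −0.55, −0.38 and 0.20, beside −0.26 over all 28 segments. TMM scaling moved that overall median to 0.08. Here and against single cells, the jointly named TRBV12-2 and TRBV13-2 was counted with the other TRBV segments, not with Vβ8 or Vβ5.

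Against single-cell lineages of the same library, no segment passed the test under the main rule. Of 150 segments 0, or 0%, were called by edgeR, with 13 at an unadjusted p under 0.05, and DESeq2 called 0 with 9 at that level. TRAV7D-2, an alpha V segment with near-identical copies in the mouse, was used by 4, 3 and 0 members in LNP-Ctrl and 1, 3 and 4 in LNP-P20-mAb. Its share was 6.85 ± 4.54% of members and 2.64 ± 0.572% of single-cell lineages (SD, n = 6), higher in 5 of 6 libraries. The log2 difference was 1.56 ± 0.47 (SE), with an edgeR adjusted p of 0.158. It was called when barcodes with 2 beta chains were kept, at a log2 difference of 1.796 and an edgeR adjusted p of 0.00585.

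Of the TRAV7 family, 0 of 11 segments were called, 8 had positive estimates and the median log2 difference was 0.49, beside −0.22 over all 150 segments. TRAV7D-3 had 5 members and TRAV7-1 had 2, as did TRAV6-2. TRAJ7 had 13 members and a log2 difference of 1.51 ± 0.50 (SE), with an edgeR adjusted p of 0.211, and was higher in 4 of 6 libraries. At 0 members, which allows up to 1.48%, were TRAV14N-1, TRAV5-4, TRAV4-3, TRAV8N-2 and TRAV11, with 180, 175, 110, 97 and 86 single-cell lineages. The median log2 differences of TRBJ1, TRBJ2, Vβ8, Vβ5 and other TRBV segments were −0.26, −0.01, −0.09, −0.72 and −0.12, with 0 of 6, 0 of 6, 0 of 3, 0 of 2 and 0 of 17 called. The relation to single cells did not differ between treatments for any of the 150 segments by edgeR (0 called, 7 at an unadjusted p under 0.05, and 0 and 3 by DESeq2).

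The members most often used TRBJ2-7 (35 lineages, 17.2%), TRBJ2-1 (27, 13.3%) and, among beta V segments, TRBV13-1 (25, 12.3%) and TRBV5 (20, 9.85%). TRBJ2 segments together made 75.6%, 60% and 73.3% of members in LNP-Ctrl and 77.1%, 72.7% and 66.7% in LNP-P20-mAb. No member had the alpha chain of iNKT cells (TRAV11 with TRAJ18) or of MAIT cells (TRAV1 with TRAJ33), which 56 and 17 usable cells of all sizes carried. No gamma, delta or immunoglobulin chain was among the 48792 deposited chains.

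The centre of the beta CDR3, the stretch most exposed to the peptide, had a lower mean hydrophobicity in every LNP-P20-mAb library's members than in any LNP-Ctrl library's. It was scored as the mean Kyte-Doolittle value after 4 residues were dropped at each end, with higher values more hydrophobic. Members averaged −0.813, −0.766 and −0.669 in the LNP-Ctrl libraries against −1.06, −1.13 and −1.22 in the LNP-P20-mAb libraries. The groups did not overlap, and the means were −0.749 ± 0.0735 and −1.14 ± 0.0802 (SD, n = 3 each). The difference of −0.389 had an exact permutation p of 0.1, the smallest that 3 against 3 libraries allow, and 0.35 after adjustment over 7 measures. Single-cell lineages lay closer together, at −1.05, −1.06 and −1.15 against −1.002, −1.01 and −1.03.

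Under the main rule each LNP-Ctrl library thus had members above its single cells, by 0.234, 0.297 and 0.477, and each LNP-P20-mAb library had members below them, at −0.0583, −0.122 and −0.191. With barcodes of 2 TRB chains kept under the chain with more UMIs, LNP-P20-mAb 1 and 2 lay above their single cells as well, by 0.129 and 0.0395, and LNP-P20-mAb 3 was at −0.125. Small lineages did not show the order between treatments, at −1.01, −0.860 and −0.969 in LNP-Ctrl and at −0.706, −0.776 and −0.903 in LNP-P20-mAb. Large lineages were at −0.846, −0.0744 and −0.269 against −0.852, −0.956 and −0.581, where the groups overlapped. Without TRBV3 members the values were −0.871, −0.938 and −1.01 against −1.06, −1.11 and −1.24, still without overlap, a difference of −0.199 with an exact permutation p of 0.1. With barcodes of 2 chains of 1 TRBV kept under the rarer chain they were −0.765, −0.746 and −0.669 against −0.848, −1.02 and −1.25, a difference of −0.315 with an exact permutation p of 0.1. LNP-P20-mAb 1, 2 and 3 were then at 0.184, 0.0131 and −0.220 from their single cells.

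**Figure D5:**
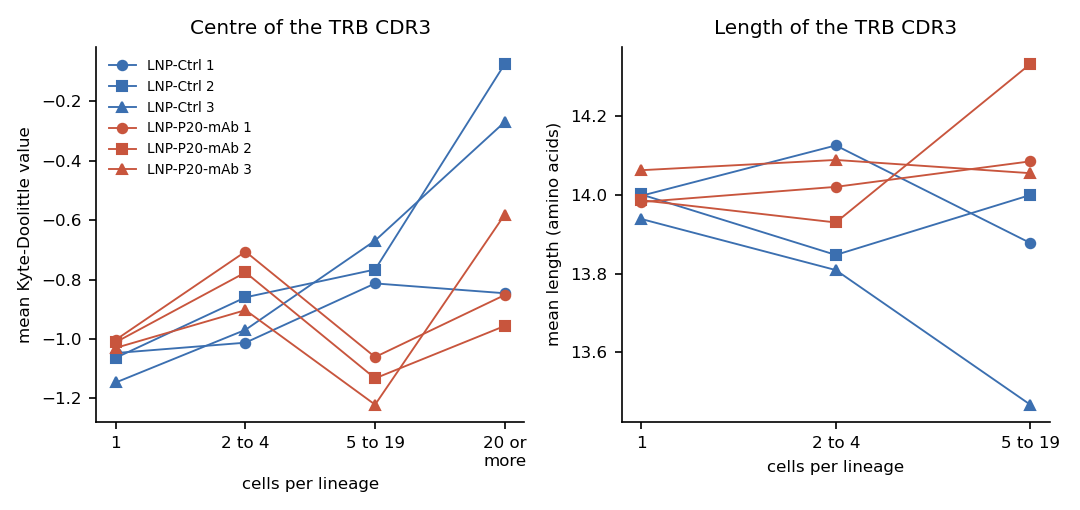
Mean Kyte-Doolittle value of the centre of the TRB CDR3 (left) and mean CDR3 length in amino acids (right) by lineage size, with 1 line for each library (blue LNP-Ctrl, red LNP-P20-mAb). At 5 to 19 cells the LNP-Ctrl libraries sit at −0.813 to −0.669 and the LNP-P20-mAb libraries at −1.22 to −1.06. Lineages of 20 or more cells number only 2 in LNP-Ctrl 3.

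In residues, A, C, F, I, L, M and V made 23.7%, 24.7% and 24.4% of the centres in LNP-Ctrl members and 16.4%, 18.2% and 16.8% in LNP-P20-mAb members. Single-cell lineages were at 18.1 ± 0.639% and 19.02 ± 0.228% (SD, n = 3 each). Charged residues made 14.3 ± 0.972% in LNP-Ctrl members and 17.5 ± 1.67% in LNP-P20-mAb members, and glycine 24.6 ± 7.19% and 24.8 ± 0.898%. Proline, tryptophan and tyrosine made 6.42 ± 1.83% and 9.27 ± 0.520%.

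Members near the ends of this scale show the range. Bases are given 5′ to 3′, with the scored centre in capitals.
TRBV12-2 or TRBV13-2 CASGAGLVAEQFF, LNP-Ctrl 1: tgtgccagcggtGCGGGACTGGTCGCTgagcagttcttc
TRBV3 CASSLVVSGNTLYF, LNP-Ctrl 2: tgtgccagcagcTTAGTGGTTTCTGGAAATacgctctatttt
TRBV5 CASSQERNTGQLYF, LNP-Ctrl 2: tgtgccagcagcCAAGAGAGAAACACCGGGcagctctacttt
TRBV13-1 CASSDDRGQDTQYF, LNP-P20-mAb 3: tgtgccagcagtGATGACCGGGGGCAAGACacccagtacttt
TRBV2 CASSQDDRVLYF, LNP-P20-mAb 1: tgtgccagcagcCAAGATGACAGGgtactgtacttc

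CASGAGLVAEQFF, with 7 cells, scored 2.24, and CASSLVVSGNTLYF, with 18 cells, scored 1.25. The highest LNP-P20-mAb member, TRBV13-1 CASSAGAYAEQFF with 7 cells in LNP-P20-mAb 3, scored 0.74. At the low end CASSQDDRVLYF, with 17 cells, scored −3.75 and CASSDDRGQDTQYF, with 8 cells, −3.15. Between them lay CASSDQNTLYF in LNP-P20-mAb 3, with 5 cells, at −3.5. The lowest LNP-Ctrl member, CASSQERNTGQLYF with 7 cells, scored −2.68. The values of single members overlapped widely between treatments.

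The beta CDR3 of members was 10 to 17 residues long, with a median of 14. Mean lengths were 13.88, 14 and 13.47 residues in LNP-Ctrl and 14.09, 14.33 and 14.06 in LNP-P20-mAb, without overlap. The difference was 0.377 residues, with an exact permutation p of 0.1 and 0.35 after adjustment over 7 measures. Against single cells of the same library it was −0.0253 residues, with an exact sign-flip p of 0.656. Without TRBV3 members the lengths were 13.77, 14 and 13.27 against 14.09, 14.34 and 14.06. The groups overlapped with barcodes of 2 TRB chains kept under the chain with more UMIs. The lengths were then 14.02, 14.03 and 13.5 against 14.02, 14.24 and 14.12. With 2 chains of 1 TRBV kept under the rarer chain they were 13.98, 13.97 and 13.47 against 14.07, 14.29 and 14.11.

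Receptor transcript per cell was compared next, as UMIs, which follow both the cell's transcript level and the depth of its library. Lineage medians of TRB UMIs per cell ran from 3 to 59, and the library medians over members were 24, 15 and 18 in LNP-Ctrl and 17, 18.5 and 16.25 in LNP-P20-mAb. Single cells gave 18, 13 and 14, and 15, 16 and 17. Members exceeded them by 2.63 ± 2.26 UMIs (SD, n = 6), in 5 of 6 libraries, with an exact sign-flip p of 0.0625 (0.109 adjusted). Large lineages were at 21.25, 17 and 25.75, and 19, 21 and 16, and the members' difference from them was −1.88 UMIs, with an exact sign-flip p of 0.3125.

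TRA UMIs per cell, summed over the alpha chains of a cell, were 12, 7.5 and 8 in LNP-Ctrl members and 10, 9.5 and 8.25 in LNP-P20-mAb members. Single cells gave 8, 6 and 6, and 7, 9 and 8, lower in 6 of 6 libraries. The difference was 1.88 ± 1.45 UMIs (SD, n = 6), with an exact sign-flip p of 0.031 and 0.109 after adjustment over 7 measures. Between treatments neither chain differed beyond the spread, with differences of −1.75 TRB UMIs and 0.0833 TRA UMIs and exact permutation p-values of 0.8 and 1. Over all usable cells the median TRB UMIs were 21, 14 and 15 in the LNP-Ctrl libraries and 19, 21 and 18 in the LNP-P20-mAb libraries, and LNP-Ctrl 1, at the top of that range together with LNP-P20-mAb 2, had the highest member medians.

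Most members kept 1 alpha chain. In 188 of 203 lineages (92.6%) every cell had the main TRA, and 154 had no other TRA in any cell. In 35 lineages (17.2%) at least 50% of the cells had 2 TRA chains. Such lineages numbered 6 of 41, 8 of 25 and 3 of 15 in LNP-Ctrl and 10 of 35, 3 of 33 and 5 of 54 in LNP-P20-mAb. Among small lineages they made 16.2% and among large lineages 7.69%. A lineage of 2 cells meets this mark with 1 such cell, so the shares of the size classes are not on equal terms.

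TRBV13-1 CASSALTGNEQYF in LNP-P20-mAb 1 is an example, with TRAV12-3 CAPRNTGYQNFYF and a TRAV10 chain together in 94.1% of its 17 cells. The share of cells with 2 TRA chains, averaged over members, was 13.2%, 27.1% and 19.2% in LNP-Ctrl and 26.0%, 10.2% and 10.0% in LNP-P20-mAb. Single cells gave 13.4%, 12.8% and 14.5%, and 10.4%, 11.9% and 13.1%. The difference from single cells was 4.94 percentage points, higher in 3 of 6 libraries, with an exact sign-flip p of 0.3125. Between treatments it was −4.43 percentage points, with an exact permutation p of 0.5.

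Alpha chains were nearly always private to a lineage within its library. In 10 members the main TRA bases were also the main TRA of another lineage of the library, and for 4 of these the other lineage had 5 or more cells. TRBV19 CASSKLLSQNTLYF, with 13 cells in LNP-Ctrl 2, shared its alpha chain with a TRBV26 lineage of 68 cells. The TRBV12-1 lineage of 18 cells and TRBV13-1 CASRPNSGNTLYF of 6 cells in LNP-P20-mAb 3 also had the same one.

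The libraries held 5050 to 9982 chains on 2446 to 4869 barcodes, of which 2016 to 3923 were usable cells, and 85835 to 145847 UMIs. Each pair of libraries shared 6 to 22 barcodes, 1 of them with the same beta chain over all 15 pairs and 0 of those in a member.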

How the data were processed

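TCR chains were measured in 6 libraries of sorted CD45+ tumour cells. The deposited tables list assembled chains with segments, CDR3 and raw counts of reads and UMIs, made with Cell Ranger 8.0.1 per the submitters' processing notes. The genome builds named there have no stated role, so no coordinates are given. The D segment and other calls are as the authors deposited them, and every chain was productive, full length and of high confidence. Samples were grouped by title.

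Members were found as stated in the report; the members and the lists were chosen with earlier results of these data known. Single values were compared by exact permutation of the 6 libraries (20 assignments, smallest p 0.1) and by exact sign flips within libraries (64 flips, smallest p 0.031), two-sided, with Benjamini-Hochberg adjustment over 7 measures, or over 2 for members against large lineages. Lineages per V or J segment were tested with edgeR 4.0.16 (quasi-likelihood, R 4.3.3), with the number of lineages as library size, Benjamini-Hochberg adjustment and a threshold of 0.05. Segments needed 10 lineages between treatments and 30 against single cells. The SE of an edgeR log2 value was derived from the estimate and its test statistic, so it adds nothing to the p-value. The script was tested on simulated data. DESeq2 1.42.0 and the other alternatives are in the closing section. Other steps ran in Python 3.11.15 (matplotlib 3.10.9, scipy 1.17.1, pandas 2.3.3, numpy 2.4.6).

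The text names every called segment, the 5 largest estimates in each direction, the 2 largest members of each library, receptors also found in a lineage of 2 or more cells of another library, and the 3 lineages of LNP-P20-mAb 1 and 2 that differ most in each direction. Other lineages named were chosen after their values were seen. The values without TRBV3 and with the rarer of 2 chains are alternatives also chosen after seeing the data. Segment copies with D or N in their names are near-identical, so single copies are uncertain. Of the lineages this rule names, 2 are not reported here.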

Additional observations from a re-analysis of the deposited data

Results flagged for a closer look

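Under the main rule, which leaves out barcodes with 2 TRB chains, the centre of the TRB CDR3 of middle-sized lineages was more hydrophobic than that of single cells in all 3 LNP-Ctrl libraries and less hydrophobic in all 3 LNP-P20-mAb libraries. The differences from single cells were 0.336 ± 0.126 and −0.124 ± 0.0665 on the Kyte-Doolittle scale (SD, n = 3 each). LNP-P20-mAb minus LNP-Ctrl was −0.46, with an exact permutation p of 0.1, the smallest that 20 assignments allow. With barcodes of 2 TRB chains kept, LNP-P20-mAb 1 and 2 lay above their single cells, by 0.129 and 0.0395, and LNP-P20-mAb 3 below, at −0.125. With 2 chains of 1 TRBV kept under the rarer chain the values were 0.184, 0.0131 and −0.220. The difference was found among 9 such differences of differences, and LNP-P20-mAb 1 and 2 share clones.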

How the results depend on the processing

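The TRBV3 call between treatments held when any 1 library was left out (log2 −3.57 to −2.72, edgeR adjusted p 0.00428 to 0.0434), with LNP-P20-mAb 1 and 2 pooled, with the deposited clonotypes, without a count filter and with barcodes counted. It was lost, with 0 segments called, under DESeq2 (adjusted p 0.0778), TMM factors (0.0878), the replicate block (0.0882), barcodes with 2 TRB chains kept (0.642) and those of 1 TRBV kept under the rarer chain (0.611, where the lowest of any segment was 0.457), an alternative chosen after seeing the data. Segment shares of members were also taken as deviations from the mean of their treatment group. Over 28 segments these deviations correlated at −0.506, 0.055 and −0.230 between same-numbered libraries of the treatments. Between differently numbered ones they correlated at −0.351 to 0.644. With 3 libraries per treatment and few lineages per segment, these values cannot decide whether the numbers pair the libraries. Against single cells 5 segments were called lower with TMM, which moved the median log2 from −0.22 to −0.88, 1 higher with 2 TRB chains kept and 3 higher with the rarer chain (adjusted p 0.00207). Leaving out 1 library gave 1 call between treatments and 0 against single cells and in the interaction.

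Some differences that missed their threshold changed sign. TRA UMIs between treatments became −0.0833 with the deposited clonotypes, −0.333 with a size window by share and with chains of 2 or more UMIs, 0 with the rarer chain, −0.167 with LNP-P20-mAb 1 and 2 as 1 sample, −1.06 with means, and −0.75 to 1.5 without 1 library. CDR3 length against single cells became 0.0397 with the deposited clonotypes and 0.0075 with 2 TRB chains kept, and −0.0996 to 0.0642 without 1 library. With 2 TRB chains kept, TRA UMIs against large lineages were −0.0417, the share of receptors found elsewhere 4.67 and the share 1 residue apart −0.0149 between treatments. The share found elsewhere was 4.12 with the rarer chain and 53.0 when LNP-P20-mAb 1 and 2 counted for each other. TRAV3N-3 was 0.13 with barcodes counted. The cause was not tested.

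TRA UMIs against single cells were 1.75 (exact p 0.09375) with the share window and 1.9 (exact p 0.0625) with LNP-P20-mAb 1 and 2 as 1 sample, where the share 1 residue apart was 16.1 (exact p 0.0625). Without 1 library the smallest p is 0.0625, and the ranges were 1.45 to 2.2 for TRA UMIs and 10.5 to 16.5 for 1 residue apart against single cells, and −3.75 to 0.75 (TRB UMIs), −1.63 to 19.6 (1 residue apart) and −9.89 to 0.312 (found elsewhere) between treatments. The centre hydrophobicity difference between treatments was −0.427 to −0.347 without 1 library, −0.272 with 2 TRB chains kept, −0.315 with the rarer chain and −0.199 without TRBV3 lineages, each with an exact p of 0.1. The number of lineages per library, 15 to 54, limits every value.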
